A study of Homo sapiens with 4 samples.

Results

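Spliced reads of chromatin-bound RNA were examined at 8 neighbouring genes of human chromosome 18, in the order RIOK3, NPC1, ANKRD29, LAMA3, TTC39C, CABYR, OSBPL1A and IMPACT. They lie within 1000713 bp on GRCh38, from the start of RIOK3 to the end of IMPACT. The 8 genes were listed because LAMA3 and ANKRD29 were lower and OSBPL1A was higher in SF3B1 K700E than in wild type in these same libraries, that is, the genes were selected on the read counts of this contrast. Every difference between the genotypes below is therefore a description, and no p-value is given. Of the 8, 6 had reads at an annotated splice junction, among 17157 such genes in the series, and the same 6 were among the 10827 genes tested. The study sequenced K562 cells of both genotypes, with 2 wild-type libraries and 2 libraries labelled SF3B1 K700E. SF3B1 is the subunit of the U2 snRNP that contacts the branch-point region of an intron, and K700E is its recurrent substitution in myeloid neoplasms. According to a treatment text given for every sample, doxycycline at 1 µg/ml switched on the modified allele and harvest followed at day 4. Whether an inducible construct was also present in wild type is not stated. Chromatin was prepared in buffers with 25 µM α-amanitin, an inhibitor of RNA polymerase II, and the RNA was freed of polyadenylated and ribosomal RNA. The labels name the cells immortalized epithelial, whereas K562 is usually described as an erythroleukemia line. Nothing says that the replicates were separate cultures, so the spread between them may be technical.

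The genes have unrelated products. LAMA3 encodes the alpha-3 chain of laminins. With the beta-3 chain (LAMB3) and other chains it forms the laminin that anchors epithelia to their basement membrane, and integrins containing ITGA6, ITGB4 or ITGA3 bind it. LAMA3 has an outer promoter for the long LAMA3B transcript and an inner promoter for the short LAMA3A transcript. NPC1 is the membrane protein that exports cholesterol from late endosomes and lysosomes, and OSBPL1A encodes the oxysterol-binding protein-related protein ORP1, whose long form sits on the same organelles, senses their cholesterol and contacts VAPA of the endoplasmic reticulum. RIOK3 is an atypical kinase of the RIO family that associates with precursors of the small ribosomal subunit. IMPACT restrains the stress kinase GCN2 (EIF2AK4) by binding its activator GCN1. CABYR is a calcium-binding protein known from sperm. ANKRD29 encodes an ankyrin-repeat protein and TTC39C a tetratricopeptide-repeat protein.

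Junction reads that mapped uniquely totalled 3576184 and 3680968 for the wild-type libraries, and 4297393 and 5313934 for the mutant ones. Reads at introns annotated to a single gene numbered 3271571 to 4857428 a library. Levels are CPM, the reads of a gene relative to the TMM-scaled library total. They reflect spliced RNA only, and unspliced nascent RNA was not analysed here. In these bulk libraries fewer cells that use a gene and less spliced RNA per cell cannot be told apart.

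The junctions that tell transcripts apart are shown first, because the questions of which start and which splice site each gene used turn on them. Each line has the last 15 exon bases before the intron in lower case and the first 15 bases after it in capitals, 5′ to 3′, from GENCODE release 29 transcripts. The first pair separates the long from the short LAMA3 transcript, whose introns end at the same acceptor (GRCh38, plus strand, chr18:23871662-23876293 and chr18:23873216-23876293).
LAMA3B exon 38 to exon 39: ggtgactcttgtcagGGTTGTAGCCCTGGA
LAMA3A exon 1 to exon 2: tttagacccagccagGGTTGTAGCCCTGGA
The next pair shows donors of ANKRD29 exon 6 that lie 4 nt apart (minus strand, chr18:23619630-23629852 and chr18:23619630-23629856).
ANKRD29 exon 6 to exon 7: aaccagccaaggcagGACGGGACAGCGCCC
ANKRD29-206 exon 3 to exon 4: agtcaaccagccaagGACGGGACAGCGCCC
The OSBPL1A junctions mark its outermost start (minus strand, chr18:24377536-24397654) and, at another acceptor, tell transcripts from the outer start (chr18:24303719-24311983) from those of an inner start (chr18:24303719-24311453).
OSBPL1A-201 exon 1 to exon 2: cgggtgaccgcgtagAAATGAACACAGAAG
OSBPL1A-201 exon 13 to exon 14: aagaaatcattagagAAAGCACAGTCATGC
OSBPL1A-202 exon 1 to exon 2: ggaatatcagcatagAAAGCACAGTCATGC
The last pair shows the alternative donors of RIOK3 exon 8, which lie 143 nt apart (plus strand, chr18:23473627-23474947 and chr18:23473484-23474947).
RIOK3-201 exon 8 to exon 9: gcacaatctcgcaagAATGCAGAGAGCTGG
RIOK3-209 exon 3 to exon 4: gaatgtgccatcaagAATGCAGAGAGCTGG

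Across the 8 genes, LAMA3 and ANKRD29 were called lower and OSBPL1A was called higher in SF3B1 K700E, RIOK3, NPC1 and IMPACT were not called, and TTC39C and CABYR had no reads. A gene was called at an adjusted p under 0.05 in edgeR's quasi-likelihood test over all genes. By that rule 0.333% of the 10827 tested genes were called higher and 0.6% lower. Because the rule that chose the 8 genes used this contrast, nothing is read from their counts against these shares. LAMA3 and ANKRD29 passed the filter on low counts through wild type only, and OSBPL1A through SF3B1 K700E only. Both SF3B1 K700E libraries were above both wild-type libraries for 2 of the 6 tested (OSBPL1A and IMPACT), as for 19.4% of all tested genes. They were below both for 2 (LAMA3 and ANKRD29), as for 20.1% of all tested genes. Without SF3B1 K700E replicate 2, none of the 3 calls remained, and edgeR called 0 of 11245 genes in all. At an unadjusted p under 0.05 that fit held 337 genes higher and 609 lower.

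**Figure D1:**
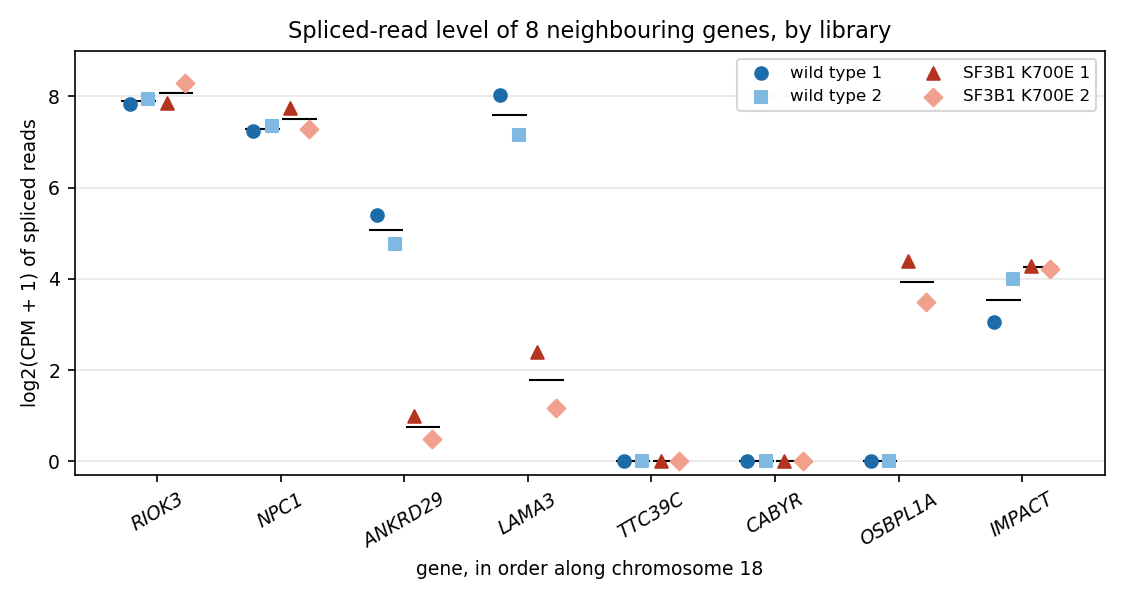
Level of each gene as log2(CPM + 1) of spliced reads (vertical axis) in the 4 libraries, genes in chromosome order (horizontal axis), with a bar at the mean of each genotype on this scale. ANKRD29 and LAMA3 sit high in both wild-type libraries and low in both SF3B1 K700E libraries, OSBPL1A sits at 0 in wild type, and TTC39C and CABYR sit at 0 in all 4.

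LAMA3 (ENSG00000053747.16, chr18:23689443-23956222, plus strand) had 852 and 472 reads in the wild-type libraries, against 17 and 6 in the SF3B1 K700E libraries. Its level was 260 and 142 CPM in wild type, against 4.29 and 1.25 CPM in SF3B1 K700E. The wild-type libraries thus differed 1.84-fold between themselves, and both were far above either SF3B1 K700E library. Among genes above the median level, 3.42% differed as much between the wild-type libraries, and the median difference was 1.19-fold. The means were 201 ± 83.8 CPM and 2.77 ± 2.15 CPM (SD, n = 2 each), which is 72.7-fold higher in wild type, with a log2 change of -6.22 (SE 0.51) in edgeR. LAMA3 was thus low in SF3B1 K700E and not at 0. Leaving out SF3B1 K700E replicate 1 gave a log2 change of -7.29, and leaving out replicate 2 of that genotype gave -5.52.

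Wild-type LAMA3 reads covered the whole long transcript. All 74 introns of LAMA3-202, the LAMA3B transcript, had reads in wild-type replicate 1, with a median of 11 reads an intron and a range of 1 to 26. In wild-type replicate 2, 72 introns had reads, with a median of 5 and a maximum of 14. Intron 53, with the most reads over the 4 libraries (39), is 89 bp long and had 23 and 14 reads in wild type, against 2 and 0 in SF3B1 K700E. The longest, intron 2 of 33870 bp, had 13 and 5 reads in wild type. Reads of the last 24 introns made up 51.0% (exact binomial 95% interval 46.5 to 55.4) of those in the first 24 and last 24 together in replicate 1, and 41.5% (35.4 to 47.8) in replicate 2. The SF3B1 K700E reads lay at 13 and 5 introns, scattered along the gene, and 56 introns had none in either library. Intervals here and below cover counting error only, since reads without molecular identifiers are not independent molecules.

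**Figure D2:**
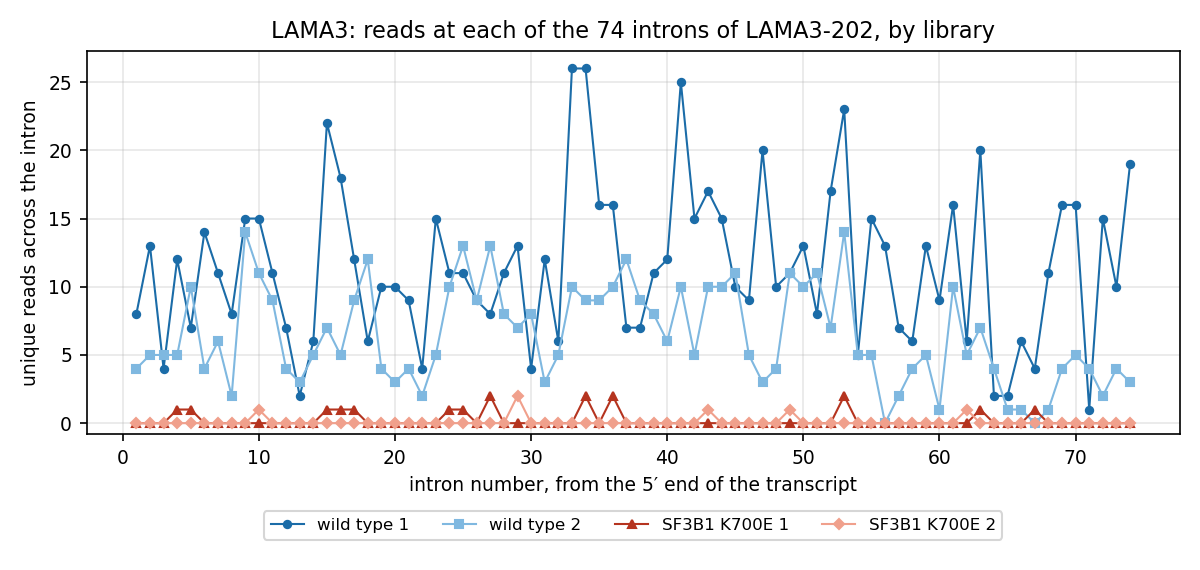
Uniquely mapped reads (vertical axis) across each of the 74 introns of LAMA3-202, numbered from the 5′ end (horizontal axis), with a line for each library. The wild-type lines run between 0 and 26 reads from the first intron to the last, and no SF3B1 K700E intron exceeds 2 reads.

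The reads that separate the LAMA3 transcripts were all at the long form. The acceptor shared by the first pair of sequences above had 7 and 9 wild-type reads from exon 38 of LAMA3B and 0 from the first exon of LAMA3A. With 0 of 16 reads, a LAMA3A share of up to 18.8% at this acceptor would go unseen in wild type (the share that 3 reads would give). In SF3B1 K700E neither junction had a read, so the comparison could not be made there. An annotated junction that skips exon 47 had 0 reads against 14 at intron 46 in wild type.

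ANKRD29 (ENSG00000154065.16, chr18:23598926-23662885, minus strand) is the next gene before LAMA3, and the pair is transcribed in opposite directions from ends that lie 26557 bp apart. It had 134 and 87 reads in wild type, against 4 and 2 in SF3B1 K700E, or 41.0 and 26.2 CPM against 1.01 and 0.416 CPM. The groups did not overlap, and replicate 1 was the higher library in each genotype, as for LAMA3. The means were 33.6 ± 10.5 and 0.713 ± 0.419 CPM (SD, n = 2 each), 47.1-fold higher in wild type, with a log2 change of -5.54 (SE 0.52) in edgeR. It was -6.22 when SF3B1 K700E replicate 1 was left out and -4.99 when replicate 2 of that genotype was.

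In ANKRD29-208, 8 of the 9 introns had reads in each wild-type library, and intron 3 had the most reads over the 4 libraries (39), with 19 and 18 in wild type. Intron 2 had no unique read in any library, although introns 1 and 3 on either side of it were read. The exon 6 donor that lies 4 nt upstream took 10 of 26 reads in wild-type replicate 1 (38.5%, 95% interval 20.2 to 59.4) and 1 of 11 in replicate 2 (9.09%, 0.230 to 41.3). Over both it took 11 of 37 reads (29.7%), and the intervals of the libraries overlapped. Neither donor had a read in SF3B1 K700E.

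OSBPL1A (ENSG00000141447.17, chr18:24162044-24397880, minus strand) is transcribed toward CABYR, and its 3′ end lies 440 bp from the end of that gene. It had 0 reads in both wild-type libraries and 79 and 49 in SF3B1 K700E, or 19.9 and 10.2 CPM there. Its level was 15.1 ± 6.89 CPM in SF3B1 K700E (SD, n = 2). Against the floor of 3 reads over the wild-type group (0.455 CPM), it was at least 32.1-fold higher in SF3B1 K700E. The SF3B1 K700E libraries differed 1.96-fold between themselves, with replicate 1 the higher.

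The OSBPL1A reads were denser toward the start of the gene. Of the 27 introns of OSBPL1A-201, 25 had reads in SF3B1 K700E, and intron 3 had the most, with 10 and 4. Introns 16 and 17 had none, and the longest, intron 15 of 41459 bp, had 2 and 1. The last 9 introns held 14.5% (95% interval 6.50 to 26.7) of the reads in the first 9 and last 9 together in replicate 1, and 22.5% (10.8 to 38.5) in replicate 2. Both values, and both intervals, lie below an equal share. No such value exists for wild type, which had no read.

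**Figure D3:**
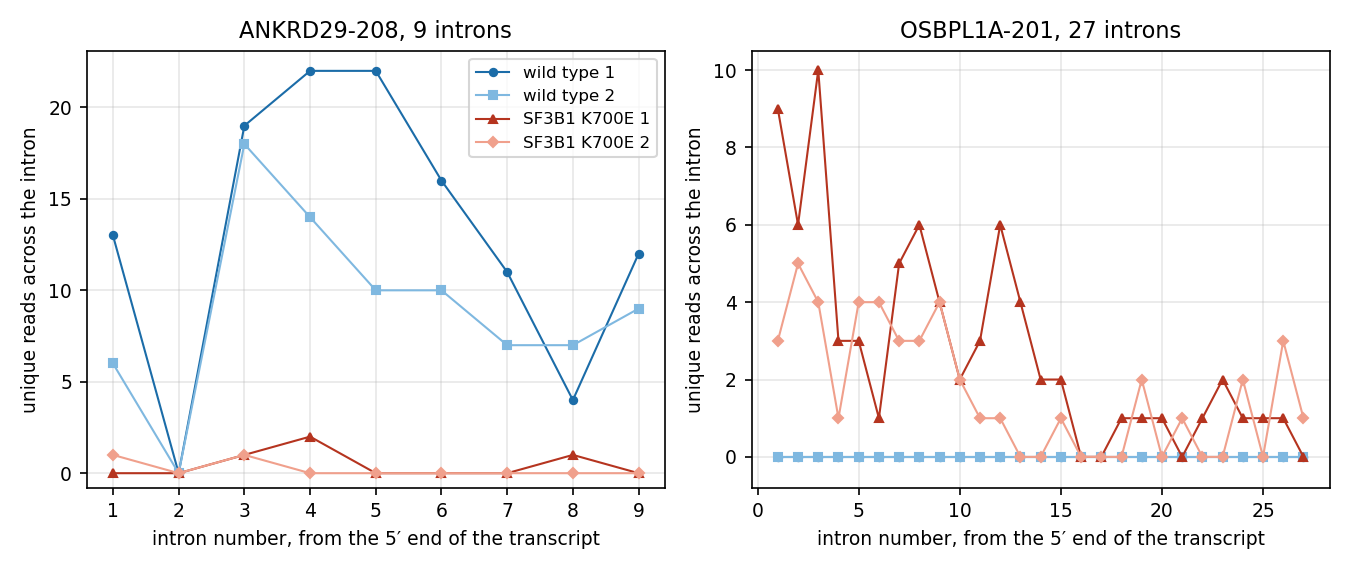
Uniquely mapped reads (vertical axis) across each intron of ANKRD29-208 and of OSBPL1A-201, numbered from the 5′ end (horizontal axis), with a line for each library. ANKRD29 is read in wild type at every intron but intron 2, and OSBPL1A is read in SF3B1 K700E only, with its highest values of 10 and 5 among the first 3 introns (the wild-type lines of OSBPL1A lie on each other at 0).

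The first intron from the outermost OSBPL1A start had 9 and 3 reads in SF3B1 K700E. A donor of the same first exon 82 nt away, used by OSBPL1A-203, had 1 and 0. The inner starts of OSBPL1A-202 and OSBPL1A-204 had 0 reads, against 4 and 3 reads over both libraries at the same acceptors from the outer transcript. At this depth the inner starts were not detectable, and 0 of 4 reads allow a share of up to 75% for OSBPL1A-202. Skipping of exon 5 had 2 of 9 reads. The outer and an inner start window are printed because all the reads that mark a start came from the outer one. They are RefSeq start windows (GRCh38.p14, minus strand, chr18:24397881-24398074 and chr18:24311533-24311756), given up to the base before the annotated transcript, with each CG in capitals.
OSBPL1A outer start, upstream bases: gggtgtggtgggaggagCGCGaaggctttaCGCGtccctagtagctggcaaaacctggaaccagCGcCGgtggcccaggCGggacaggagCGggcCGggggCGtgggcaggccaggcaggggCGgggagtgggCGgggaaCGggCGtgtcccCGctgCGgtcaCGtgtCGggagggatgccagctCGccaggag
OSBPL1A-202 start, upstream bases: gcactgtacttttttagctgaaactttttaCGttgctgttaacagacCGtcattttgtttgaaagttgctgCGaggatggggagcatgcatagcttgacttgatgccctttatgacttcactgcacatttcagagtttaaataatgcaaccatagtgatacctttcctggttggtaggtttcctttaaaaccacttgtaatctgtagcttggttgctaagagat
The full 300-base window of the outer start held 38 CG, the same on either strand, and 9.91% of 35116 human windows of that length held as many or more. The OSBPL1A-202 window held 3, which 81.8% of windows reach, and the innermost window held 12, which 53.1% reach. The median window held 14.

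For the other genes of the interval that have a window, it held 25 CG in RIOK3, 29 in NPC1, 33 in IMPACT, 24 and 23 at the starts of CABYR, and 6 in TTC39C. The TTC39C window (chr18:24113077-24113376) lies inside intron 6 of TTC39C-201 (chr18:24083082-24114553), so it is at an inner start and not at the outer one. No window is given for ANKRD29. The LAMA3 window lies at the inner LAMA3A start, which had no read, and held 13. The CABYR windows held nearly as many CG as that of RIOK3, although CABYR had no unique read at an annotated intron.

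TTC39C (ENSG00000168234.12) and CABYR (ENSG00000154040.20), which lie between LAMA3 and OSBPL1A, had 0 unique reads at their 20 and 24 annotated introns in all 4 libraries. The floor of 3 reads over the 4 libraries allows up to 0.195 CPM for each. TTC39C starts 36550 bp after the end of LAMA3, on the same strand. Multiply mapped reads numbered 2 in TTC39C and 1 in CABYR. A further junction with 1 unique read began inside CABYR and ended past it, at no annotated intron of CABYR. LAMA3 and OSBPL1A, which differ in opposite directions, are separated by 205821 bp that include TTC39C and CABYR. Unspliced RNA of these genes was not measured.

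IMPACT (ENSG00000154059.10, chr18:24426616-24453535, plus strand) lies 28735 bp beyond the OSBPL1A start and is transcribed away from it. It had 24 and 50 wild-type reads and 73 and 85 mutant reads, or 7.34 and 15 CPM against 18.4 and 17.7 CPM. Both SF3B1 K700E libraries were higher, but wild-type replicate 2 was close to them and 2.05-fold above wild-type replicate 1. The log2 change was 0.69 (SE 0.39) and the gene was not called. Leaving out wild-type replicate 1 gave 0.26, and leaving out wild-type replicate 2 gave 1.32. The last 3 of its introns held 15.4% (1.92 to 45.4) and 9.68% (2.04 to 25.8) of the reads in the first 3 and last 3 together in wild type, against 27.9% (15.3 to 43.7) and 46.3% (32.6 to 60.4) in SF3B1 K700E. These shares rest on 13 and 31 reads in wild type, against 43 and 54 in SF3B1 K700E. They were higher in both SF3B1 K700E libraries, and their intervals overlapped for all pairs of a wild-type and an SF3B1 K700E library except wild-type replicate 2 with SF3B1 K700E replicate 2. Intron 3 had the most reads, with 4 and 14 in wild type, against 14 and 15 in SF3B1 K700E.

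RIOK3 (ENSG00000101782.14, chr18:23452823-23486603, plus strand) had 743 and 819 reads in wild type, against 920 and 1503 in SF3B1 K700E. The levels were 227 and 246 CPM against 232 and 313 CPM, so the groups overlapped, and the log2 change was 0.20 (SE 0.23). NPC1 (ENSG00000141458.12, chr18:23506184-23586898, minus strand) had 493 and 537 reads in wild type, against 845 and 745 in SF3B1 K700E. Its levels were 151 and 161 CPM against 213 and 155 CPM, again overlapping, with a log2 change of 0.24 (SE 0.24). Neither gene was called. NPC1, not called, and ANKRD29, called lower, lie 12027 bp apart on the same strand. Without SF3B1 K700E replicate 2 the RIOK3 log2 change was -0.016, and without replicate 1 that of NPC1 was -0.0022.

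Because the genes differ in length and intron number, levels between them were compared as mean CPM per annotated intron of the main transcript. On that scale RIOK3 stood highest, at 18.7 to 25.4 over the 4 libraries, followed by NPC1 at 6.19 to 8.82, with no overlap between them. Wild-type ANKRD29 (4.04 and 2.71) and wild-type LAMA3 (3.51 and 1.91) came next and overlapped each other. IMPACT followed, at 0.734 and 1.5 in wild type, against 1.84 and 1.77 in SF3B1 K700E. OSBPL1A in SF3B1 K700E (0.701 and 0.347) was below the lowest IMPACT value. Per intron, LAMA3 and ANKRD29 were thus at like levels in wild type, while their summed CPM differed with the 74 and 9 introns of their transcripts.

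Splice-site choice within the genes was examined next, since SF3B1 acts at the 3′ splice site. For RIOK3, exon 7 was skipped in 4 of 67 reads (5.97%, 95% interval 1.65 to 14.6) and 23 of 92 (25.0%, 16.6 to 35.1) in wild type. In SF3B1 K700E it was skipped in 11 of 116 (9.48%, 4.83 to 16.3) and 23 of 156 (14.7%, 9.58 to 21.3). The wild-type libraries were thus the lowest and the highest of the 4, and the SF3B1 K700E values lay between them. The upstream donor of RIOK3 exon 8 took 1 of 15 reads (6.67%, 0.169 to 31.9) and 3 of 26 (11.5%, 2.45 to 30.2) in wild type. In SF3B1 K700E it took 15 of 43 (34.9%, 21.0 to 50.9) and 9 of 55 (16.4%, 7.77 to 28.8). Both SF3B1 K700E shares were higher, by 16.5 percentage points in the mean (9.10 ± 3.44% against 25.6 ± 13.1%, SD, n = 2 each). Every wild-type interval overlapped every SF3B1 K700E interval, and the difference was 7.26 points when SF3B1 K700E replicate 1 was left out and 25.8 points when replicate 2 of that genotype was. Alternative acceptors of RIOK3 were little used in both genotypes. An inner acceptor of exon 3 took 0 of 145 reads in wild type, against 3 of 247 in SF3B1 K700E. One of exon 12 took 2 of 228 against 4 of 262, and for both acceptors the intervals of the genotypes overlapped.

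**Figure D4:**
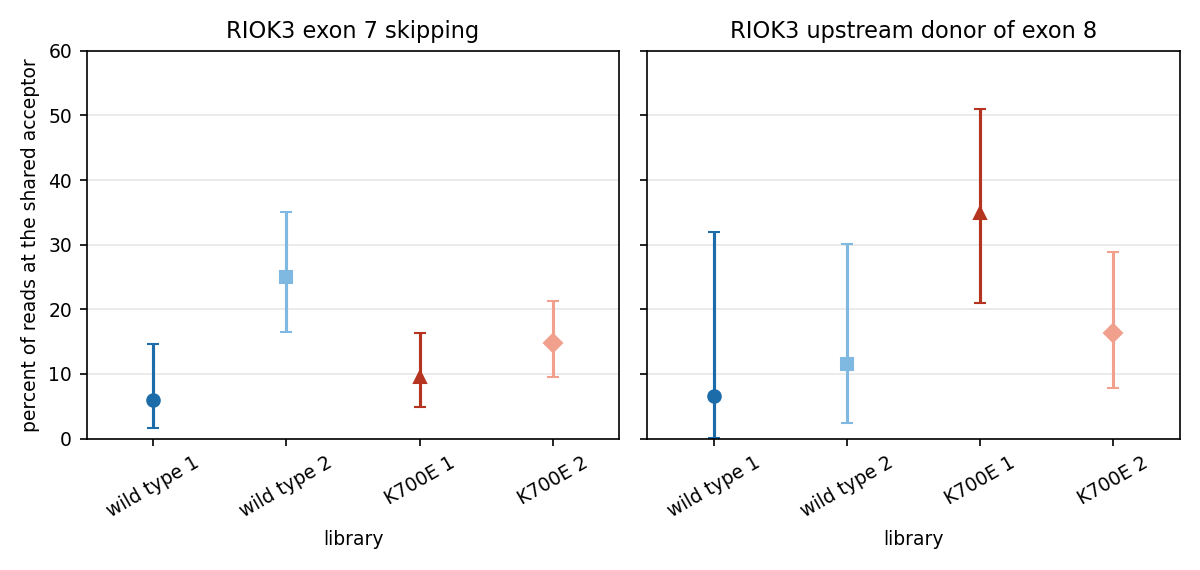
Share of reads (vertical axis, percent) that skip RIOK3 exon 7 or use the upstream donor of RIOK3 exon 8, out of those reads and the reads of the main junction at the same acceptor, in each library (horizontal axis), with exact binomial 95% intervals. Exon 7 skipping is 5.97% and 25.0% in wild type with the SF3B1 K700E values between, and the upstream donor is 6.67% and 11.5% in wild type, against 34.9% and 16.4% in SF3B1 K700E.

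In NPC1, a first exon inside the gene (NPC1-206) took 3 of 54 reads in wild type, against 8 of 66 in SF3B1 K700E. An acceptor of exon 8 that lies 51 nt upstream took 3 of 32 and 8 of 67. Skipping of exons 10 and 11 took 3 of 51 reads in wild type, all in replicate 1, and 0 of 73 in SF3B1 K700E, which allows a share of up to 4.11%. None of these NPC1 shares had intervals that separated the genotypes. Relative use of junctions that share a donor or acceptor was also fitted over the whole table with edgeR's diffSpliceDGE, where 0.0656% of 38110 junctions were called. Of the 11 junctions of the 8 genes that could be tested, in RIOK3, NPC1 and ANKRD29, 0 were called, and 0 had an unadjusted p under 0.05 in edgeR or with limma voom. The ANKRD29 junctions had no read in SF3B1 K700E, and LAMA3, OSBPL1A and IMPACT had no testable junction pair, so this fit holds no information on splice-site choice in the 3 called genes.

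Junctions absent from the annotation had few reads each, although LAMA3 had 35 of them, NPC1 23 and RIOK3 19. None of the 8 genes had one with 10 reads, and the most-read one had 9, in NPC1. Such junctions took 0.920% of the reads in RIOK3, 1.95% in NPC1, 5.42% in ANKRD29, 4.74% in LAMA3, 4.48% in OSBPL1A and 5.31% in IMPACT, against 4.53% over all canonical junctions. Unannotated acceptors 10 to 30 nt upstream of an annotated one had 1 or 2 reads each. RIOK3 had 3 such sites, read in SF3B1 K700E, NPC1 and LAMA3 had 1 site each, read in wild type, and OSBPL1A had 1 site, read in SF3B1 K700E. With so few reads no difference between the genotypes was detectable at these sites. The single junction that joined 2 of the 8 genes ran from RIOK3 to NPC1 and had 0 unique and 2 multiply mapped reads. No unique read joined LAMA3 to TTC39C or OSBPL1A to any neighbour.

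The neighbours of the interval were followed on both sides. Of the 19 flanking genes listed, 14 had reads and 11 were tested. None was called in either direction by edgeR or by DESeq2, 0 had an unadjusted p under 0.05 in edgeR, and the log2 changes ran from -0.84 to 0.36 with a median of -0.02, beside a median of 0.0037 over all genes tested. RMC1, which lies between RIOK3 and NPC1 and overlaps the end of NPC1 on the opposite strand, had 85.6 and 87.2 CPM in wild type, against 96.1 and 94.2 CPM in SF3B1 K700E (log2 change 0.14, SE 0.23). The nearest expressed gene upstream of RIOK3, TMEM241, had 32.4 and 40.0 against 37.1 and 22.9 CPM. On the other side, ZNF521, a zinc-finger transcription factor, had 114 and 106 against 89.8 and 33.3 CPM, a log2 change of -0.84 (SE 0.39) that was not called. SF3B1 K700E replicate 2 was the lowest library for both TMEM241 and ZNF521. Both SF3B1 K700E libraries were above both wild-type libraries for 2 of the 11 and below for 3, beside the 19.4% and 20.1% of all tested genes given above.

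**Figure D5:**
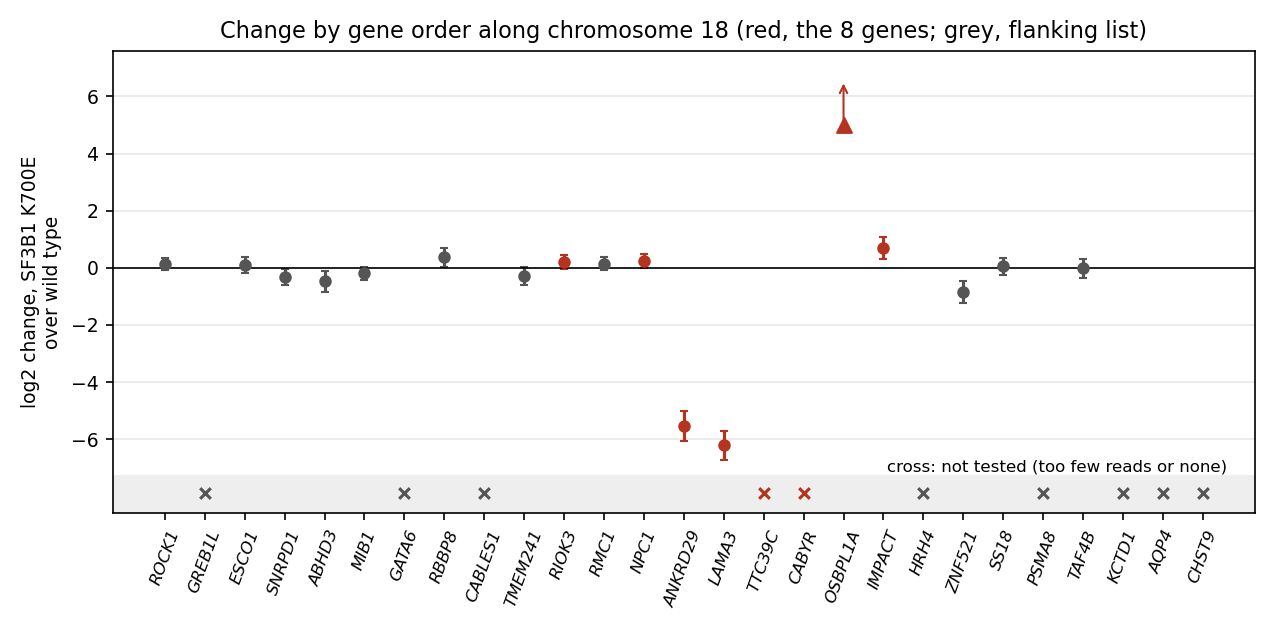
Log2 change of SF3B1 K700E over wild type (vertical axis, edgeR, bars 1 SE) for the 8 genes in red and the flanking list in grey, in order along chromosome 18 and not to scale (horizontal axis). Crosses mark genes not tested, and the OSBPL1A triangle is the lower bound of at least 32.1-fold on a log2 axis. ANKRD29 and LAMA3 are adjacent at -5.54 and -6.22, and the flanking genes lie between -0.84 and 0.36.

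Partners of LAMA3 were measured in the same libraries. Of 11 other laminin chain genes, 9 had reads and 6 were tested. EdgeR called none (median log2 change 0.22), with 2 at an unadjusted p under 0.05 (LAMB1 and LAMC1). DESeq2 called 1, LAMB1, beside 63 of all 10827 tested genes that it called higher. LAMB3, which pairs with LAMA3 in the epithelial laminin, had few reads, at 2.75 and 4.21 CPM in wild type, against 2.02 and 6.65 CPM in SF3B1 K700E. LAMA5 had the highest level of the list by CPM, at 274 and 221 against 237 and 211. LAMB1 had 60.5 and 42.7 CPM in wild type, against 149 and 90.3 in SF3B1 K700E, a log2 change of 1.21 (SE 0.31) in edgeR, and both SF3B1 K700E libraries were above both wild-type libraries. LAMC1, which encodes the gamma chain of many laminins, had 47.4 and 50.5 CPM against 89.6 and 76.1 CPM (log2 change 0.76, SE 0.25), also without overlap. These were 2 of the 6 tested laminin genes, and 0 had both SF3B1 K700E libraries below both wild-type libraries. Over all tested genes 19.4% were above and 20.1% below. Of 8 receptor and hemidesmosome genes, 7 had reads, 5 were tested and none was called by edgeR or DESeq2 (median -0.0089), with 0 at an unadjusted p under 0.05. PLEC, which encodes the cytolinker plectin, had the highest level, at 1634 and 1094 CPM in wild type, against 972 and 2196 in SF3B1 K700E. The integrin subunit ITGA3 had 6.72 and 6.91 against 3.53 and 2.91 CPM (log2 change -1.08, SE 0.49), and the tetraspanin CD151 had 50.1 and 43.6 against 36.1 and 34.9 CPM. Both SF3B1 K700E libraries were below both wild-type libraries for these 2 of the 5 and above for 0, beside 20.1% and 19.4% of all tested genes. ITGA6 had 1 read in one library of each genotype, and the integrin subunit ITGB1 had 173 and 232 against 227 and 211 CPM.

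In the pathways of the other genes, edgeR and DESeq2 called none, and 1 gene each was at an unadjusted p under 0.05 in the cholesterol, oxysterol and ribosome lists (GRAMD1A, OSBPL5 and LTV1), with 0 in the GCN2 list. Among 9 genes of lysosomal cholesterol handling beside NPC1, 6 were tested (median -0.11). STARD3, a cholesterol-binding protein of late endosomes, had the highest level of these, at 177 and 118 against 114 and 148 CPM. NPC2, the luminal partner of NPC1, was not called, at 13.4 and 12 CPM in wild type, against 9.33 and 7.90 in SF3B1 K700E, and was named after its values were seen. Of 14 oxysterol-binding proteins and tethers, all had reads and 13 were tested (median 0.0037). OSBPL3 had the highest level of these, at 405 and 348 against 291 and 313 CPM. OSBPL1A had no read in wild type, where all 14 of these genes were read. The least read of them there, OSBPL10, had 1 and 3 reads and was not tested. The 7 genes of RIO kinases and maturation of the small ribosomal subunit were all tested (median 0.44), with TSR1 the highest at 107 and 106 against 156 and 134 CPM. Both SF3B1 K700E libraries were above both wild-type libraries for 4 of the 7 and below for 0, beside 19.4% and 20.1% of all tested genes. In the GCN2 pathway of IMPACT, 4 of 4 were tested (median 0.21), with GCN1 the highest at 1035 and 891 against 968 and 1093 CPM. The counts above and below were 2 and 0 of 4 there, 2 and 2 of 6 in the cholesterol list, and 2 and 4 of 13 in the oxysterol list.

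No cell type marker was called by edgeR or DESeq2, 0 of the epithelial and megakaryocyte lists were at an unadjusted p under 0.05 in edgeR, and the summed levels of the genotypes overlapped for all 3 marker lists. For 10 erythroid genes the summed level was 1949 and 3039 CPM in wild type, against 2341 and 3823 CPM in SF3B1 K700E, and 0 of the 8 tested were called. TFRC, the transferrin receptor, had 1213 and 1640 against 1116 and 1660 CPM. For 9 epithelial genes the sum was 483 and 371 against 348 and 443 CPM, with 5 genes read and 0 of 4 tested called. Of the epithelial list, CDH1, KRT5, ESRP1 and GRHL2 were at 0 in all 4 libraries, and KRT14 had 1 read, in wild-type replicate 2. KRT8, KRT18, KRT19 and EPCAM were read in all 4. EPCAM had 13.8 and 12.3 CPM in wild type, against 16.65 and 14.3 CPM in SF3B1 K700E. KRT18, the highest of the list, went the other way, at 214 and 179 against 159 and 176 CPM. Both SF3B1 K700E libraries were above both wild-type libraries for 1 of the 4 tested and below for 1, beside 19.4% and 20.1% of all tested genes. For 5 megakaryocyte genes the sum was 415 and 150 against 145 and 612 CPM, nearly all of it ITGA2B, with GP1BA and PF4 at 0. Within wild type, replicate 1 was the higher library for ITGA2B, as for LAMA3 and ANKRD29. Within SF3B1 K700E, replicate 2 was the higher for ITGA2B, and replicate 1 was the higher for LAMA3, ANKRD29 and OSBPL1A. A relation between these genes and the mix of cells was not tested.

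Likeness of pattern was measured as the Euclidean distance between log2(CPM + 1) values centred over the 4 libraries, which all genes share. The 5 genes nearest to LAMA3 were DOCK10 (distance 1.34), ANKRD29 (1.58), COL23A1 (1.70), TSPEAR-AS1 (2.32) and FCHO1 (2.55). ANKRD29 was listed for its lower level in SF3B1 K700E in these same libraries, so its nearness is a description. The levels given for genes near LAMA3 or OSBPL1A follow from the distance that chose them. DOCK10, a guanine nucleotide exchange factor, had 223 and 97.7 CPM in wild type, against 7.57 and 0 in SF3B1 K700E. The collagen gene COL23A1 had 142 and 46 CPM against 1.26 and 2.50 CPM. These lie on other chromosomes than LAMA3, except for ANKRD29. The 5 nearest to OSBPL1A were NPAS2 (0.557), PRTG (0.621), THBS1 (0.880), CNKSR3 (0.911) and PDE4D (0.965), none of them on chromosome 18. NPAS2, a circadian transcription factor, had 0 and 0.301 CPM in wild type, against 15.9 and 13.1 CPM in SF3B1 K700E. THBS1, which encodes the matrix protein thrombospondin, had 0.611 and 0.601 against 16.4 and 9.36 CPM.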

How the data were processed

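Per the run logs deposited with each library, the authors mapped trimmed paired reads to GRCh38.p12 using STAR 2.7.10a, with junctions of GENCODE 27 in the index and GENCODE 22 added at mapping. The deposited tables hold raw, unscaled counts per splice junction, in separate columns for unique and multiple mappings. Unique counts at annotated introns were summed per gene of GENCODE 29, leaving out introns of more than 1 gene (3.79 to 4.15% of reads). Genes were filtered with filterByExpr, scaled by TMM and tested with edgeR 4.0.16 in R 4.3.3 (quasi-likelihood test, group as the only term, Benjamini-Hochberg over all genes), and junctions with at least 10 reads were tested with diffSpliceDGE. The SE of a log2 change is its size divided by the square root of F. The biological coefficient of variation was 21.7%. DESeq2 1.42.0 and limma 3.58.1 served as alternatives. Shares have exact Clopper-Pearson 95% intervals, and a group at 0 has a floor of 3 counts.

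The 8 genes, the flanking, pathway and marker lists and the tests were chosen with earlier results of these data known. All 8 genes, flanking genes called or nearest on each side, the highest genes of each list (at most 3), the most-read intron of each gene, introns of a single start or transcript, and the 5 genes nearest in pattern were named. RMC1, LAMB3, LAMC1, GRAMD1A, OSBPL5, OSBPL10, LTV1, LAMB1, ITGA3, ITGB1, CD151, ITGA6, NPC2, EPCAM, KRT14 and marker genes named at 0 fall outside that rule and were named after their values were seen. Values of some single genes of the lists are not reported here.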

Additional observations from a re-analysis of the deposited data

How the results depend on the processing

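LAMA3, ANKRD29 and OSBPL1A kept their direction under all 11 alternatives and their call under 10, the exception being the fit without SF3B1 K700E replicate 2. Leaving out each replicate gave 0 to 1 of the 8 genes higher and 0 to 2 lower, and 0 to 98 and 0 to 227 over all genes, and the cause was not tested. DESeq2 called 63 higher and 154 lower over all genes, against 36 and 65 with edgeR. With a replicate block, edgeR called 51 and 85 over all genes and the same number of the 8 genes (1 higher, 2 lower). Replicate deviations correlated at -0.23 between the genotypes, the labels do not pair the numbers, and a block with crossed numbers, added after seeing the data, called 134 and 326. Leaving out a replicate gave log2 changes from -0.016 to 0.41 in RIOK3 and from -0.0022 to 0.46 in NPC1, and a difference in RIOK3 exon 7 skipping from -12.9 to 6.14 percentage points (main value -3.37). At this depth only 11 junctions of the 8 genes could be tested for splicing, and 0 were called in any of the 7 alternatives of that test.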
